A study of Homo sapiens with 4 samples.

Results

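The D cyclins, their kinase partners CDK4 and CDK6 and the kinase inhibitors CDKN1B, CDKN2C and CDKN2D take part in G1 phase control. So do the pocket proteins RB1 and RBL1. Other G1 genes, among them p21 (CDKN1A) and the E cyclins, lie outside the set described here. The set was defined by gene names, with earlier results of these data known, and holds 10 genes (CCND1, CCND2, CCND3, CDK4, CDK6, RB1, CDKN1B, CDKN2C, CDKN2D and RBL1) out of 29286 listed per library. All 10 were found by their Ensembl identifiers, and 9 reached 1 FPKM in at least 2 libraries and were tested. CCND2 did not.

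RNA was sequenced from HCT116, a human cell line established from a colorectal carcinoma, in 2 control libraries and 2 knockdown libraries. Control cells carried the hairpin shNC, which the titles of the samples write as shNC2, and knockdown cells carried a hairpin against WDR43 (shWDR43), a nucleolar protein of small ribosomal subunit assembly. Both groups had 48 h of lentiviral infection followed by 3 days of puromycin selection, although a treatment label calls the cells transfected. The labels give 1 WDR43 hairpin name, and no label ties replicates to separate cultures. P-values therefore reflect the spread among these libraries alone, and it may be technical.

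Values were read as FPKM, fragment counts divided by transcript length and by library size, and summed to between 393582 and 413758 per library. The read depth behind them is unknown. WDR43 itself had no value in the tables used here, so the labels were not checked against their target. Among 9 colorectal epithelial markers, 6 (EPCAM, KRT8, KRT18, KRT19, CDH1 and CDX2) were at 1 FPKM or more in every library, while VIL1, LGALS4 and CEACAM5 stayed below 1 FPKM. Of 12 markers of fibroblasts, leukocytes and endothelium, 9 were in the tables. LUM was at 0 in every library, and COL1A1 and CD68 were the only ones at 1 FPKM or more in every library. The summed level of these 9 was 10.9 to 12.8 FPKM in shNC and 16.8 to 19.1 FPKM in shWDR43. CD68 went from 4.62 and 3.58 FPKM to 11.7 and 10.6 FPKM (log2 change 1.26, limma adjusted p = 0.00646), and COL1A1 at 7.80 and 6.98 FPKM against 7.14 and 5.69 FPKM (adjusted p = 0.385). The 9 epithelial markers summed to 1745 and 2067 FPKM in shNC and to 2501 and 2443 FPKM in shWDR43, and KRT8 rose (log2 change 0.50, adjusted p = 0.0480). Genes whose symbols start with MT-, those of the mitochondrial genome, took 25.5% and 26.8% of the summed FPKM in shNC and 23.9% and 24.6% in shWDR43. The part of these differences in the results below was not tested.

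As background, D cyclins are the mitogen-responsive cyclins. They bind CDK4 or CDK6, and the complexes phosphorylate RB1 and its relatives, which otherwise hold E2F transcription factors in check. INK4 proteins such as CDKN2C (p18) and CDKN2D (p19) bind CDK4 and CDK6 and keep cyclins off, whereas CIP/KIP proteins such as CDKN1B (p27) bind assembled cyclin-kinase complexes, inhibiting CDK2 while also helping D cyclins and CDK4 to assemble. In colorectal epithelium CCND1 is known as a gene that responds to WNT and growth factor signals.

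The D cyclins reach RB proteins through a short motif near their start, LxCxE, which is encoded at the beginning of the first coding exon. The first 36 coding bases of CCND1 and CCND3 are shown because both genes rose and their proteins share the motif, read from GENCODE release 29 transcripts on GRCh38, with the 5 codons of the motif in capitals. CCND1 is read from chr11:69641314-69641349 (plus strand) and CCND3 from chr6:41941614-41941649 (minus strand).
CCND1: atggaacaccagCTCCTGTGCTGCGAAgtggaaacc
CCND3: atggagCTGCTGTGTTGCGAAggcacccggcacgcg
The motif occupied codons 5 to 9 in CCND1 and codons 3 to 7 in CCND3. Over these 15 bases, CCND1 and CCND3 shared 13.

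Summed D cyclin FPKM was nearly double in the libraries with the WDR43 hairpin, carried almost wholly by CCND1. FPKM is relative to library size, so the amount of mRNA per cell was not measured. CCND1 (ENSG00000110092, chromosome 11, 69641087 to 69654474) was at 75.6 and 78.5 FPKM in the control libraries and at 151 and 154 FPKM in the shWDR43 libraries. The groups lay far apart, with the libraries of each group close together. The mean went from 77.0 ± 2.10 to 152 ± 2.39 FPKM (SD, n = 2 per group), a 1.98-fold rise, and the log2 change was 0.97 ± 0.08 (SE, on the log2(FPKM + 1) scale, limma adjusted p = 0.00346). CCND1 stood 17th of 13303 tested genes by p-value. In bulk RNA, more cells in a phase that expresses a gene and more RNA of it per cell cannot be told apart.

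CCND3 (chromosome 6, 41934933 to 42050357, minus strand), the D cyclin best known from lymphoid cells, rose as well from a much lower level. It was at 4.57 and 5.81 FPKM in the control libraries and at 8.74 and 9.57 FPKM in the shWDR43 libraries, without overlap. The means were 5.19 ± 0.877 and 9.16 ± 0.584 FPKM (SD, n = 2 per group), a ratio of 1.77, with a log2 change of 0.72 ± 0.12 (SE, adjusted p = 0.0263). Without any filter on low values CCND3 did not pass (adjusted p = 0.125, the highest of 11 alternatives). CCND2 was listed at 0 FPKM in 3 libraries and at 0.0141 FPKM in shWDR43 replicate 2, so nearly all the D cyclin FPKM listed was that of CCND1 and CCND3. CCND2 lies wholly within AC008012.1 on the same strand, and the assignment of reads that both could hold is not stated in the labels or tables.

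The D cyclins together summed to 80.1 and 84.3 FPKM in the control libraries and to 159 and 163 FPKM in the shWDR43 libraries, a ratio of means of 1.96. CCND1 made up 94.3% and 93.1% of that sum in shNC and 94.5% and 94.1% in shWDR43. The share overlapped between groups, and CCND1 stood to CCND3 at 16.5 and 13.5 in shNC against 17.2 and 16.1 in shWDR43 (exact two-sided permutation test, p = 0.667). With 2 libraries per group the exact test cannot go below p = 0.333.

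**Figure D1:**
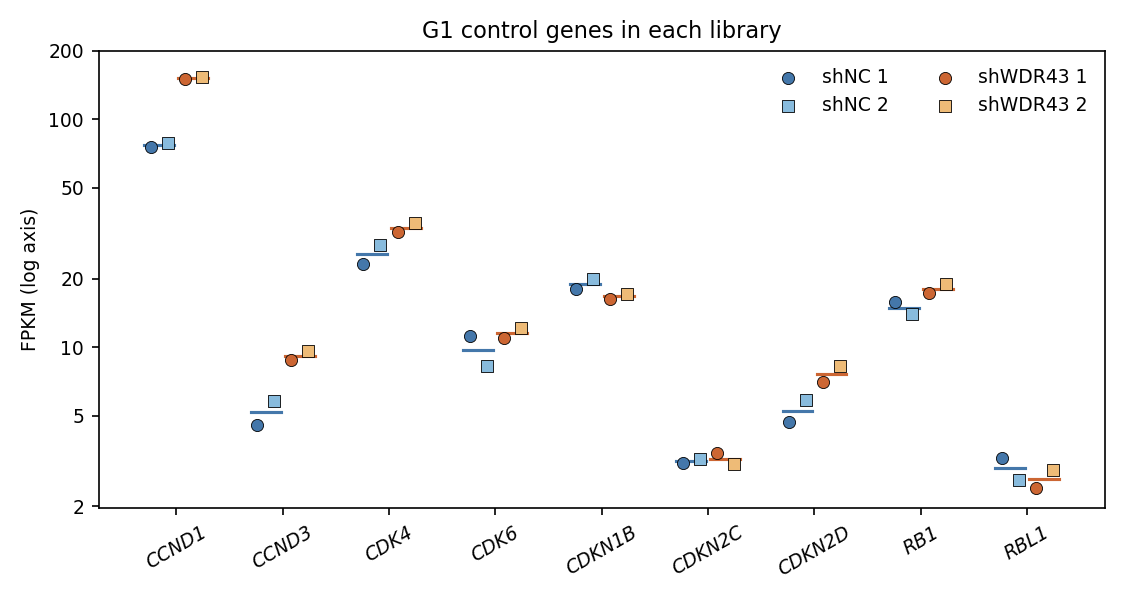
FPKM (log axis) of 9 genes in each of the 4 libraries, with blue points for shNC, orange points for shWDR43, circles for replicate 1, squares for replicate 2 and horizontal lines for group means. CCND2, at or near 0, is not drawn. CCND1 and CCND3 lie clearly higher in both shWDR43 libraries, while CDK6, CDKN2C and RBL1 overlap between the groups.

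Of the 9 tested genes, 2 rose (22.2%) and 0 fell. Over all 13303 tested genes 6.26% changed, 4.79% upward and 1.47% downward. With the deposited scaling no gene of the set had an unadjusted p below 0.05 in the downward direction, and 1 had after upper-quartile scaling. The split over all genes was 637 higher to 196 lower with the deposited scaling and 327 to 287 after upper-quartile scaling. CCND1 and CCND3 passed under either scaling.

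Neither kinase gene passed the test on all 4 libraries. CDK4 was at 23.3 and 28.2 FPKM in the control libraries and at 32.04 and 34.9 FPKM in the shWDR43 libraries. Its groups did not overlap, but the control libraries lay further apart than the nearest libraries of different groups. The ratio of means was 1.30 and the log2 difference 0.37 ± 0.11 (SE, adjusted p = 0.0807), with a 95% limma interval of 0.12 to 0.62. Over the alternatives the CDK4 difference ran from 0.24 to 0.50, the highest being without shNC replicate 2.

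CDK6 (chromosome 7, 92604921 to 92836594), the sister kinase, was at 11.2 and 8.28 FPKM in the control libraries and at 10.9 and 12.1 FPKM in the shWDR43 libraries. Its groups overlapped, because shNC replicate 1 was above shWDR43 replicate 1. The log2 difference was 0.23 (adjusted p = 0.327), with an interval of -0.09 to 0.55. It was 0.43 without shNC replicate 1, where it passed (adjusted p = 0.0341), and 0.03 without shNC replicate 2. CDK4 and CDK6 summed to 34.5 and 36.5 FPKM in the control libraries and to 43.0 and 47.0 FPKM in the shWDR43 libraries, a ratio of means of 1.27. CDK4 held 67.5% to 77.3% of that sum over the 4 libraries.

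The D cyclin genes had the larger ratio between groups. The ratio of the D cyclin sum to the CDK4 plus CDK6 sum was 2.32 and 2.31 in shNC and 3.71 and 3.48 in shWDR43, without overlap (exact permutation test, p = 0.333, the smallest this design allows). A ratio within a library does not depend on how libraries are scaled.

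**Figure D2:**
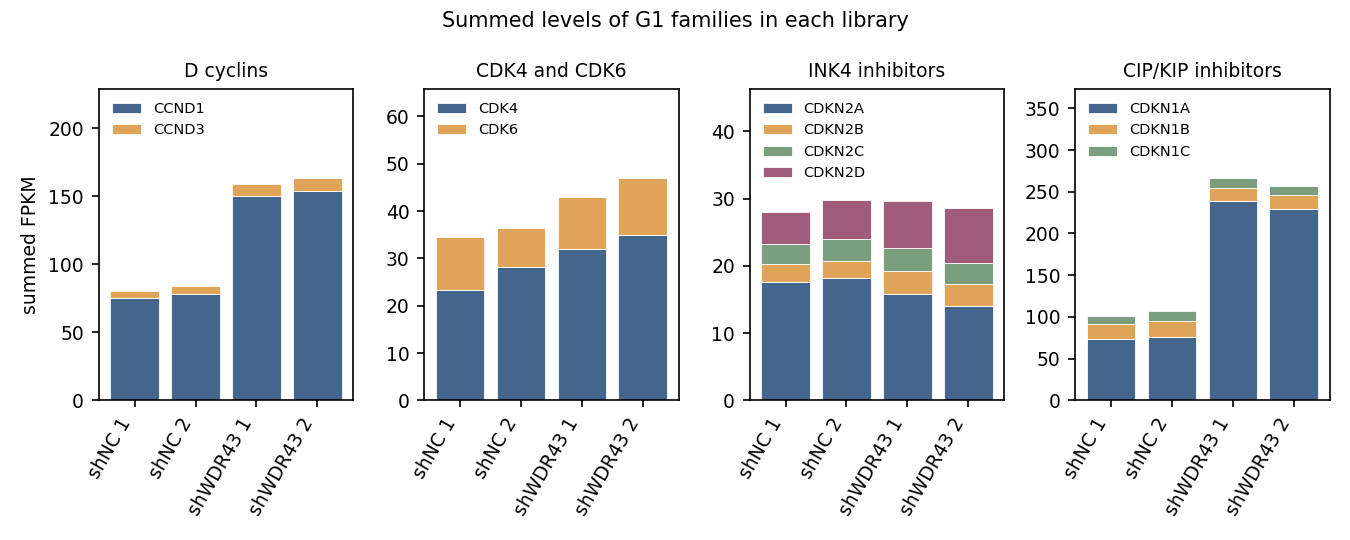
Summed FPKM of the D cyclins, of CDK4 and CDK6, of the INK4 inhibitors and of the CIP/KIP inhibitors in each library, as stacked bars from 0 with a separate axis for each panel. The D cyclin bars go from 80.1 and 84.3 FPKM to 159 and 163 FPKM, and the INK4 bars stay between 27.999 and 29.9 FPKM.

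Of the 3 inhibitor genes of the set, none passed the test on all 4 libraries. CDKN2D (chromosome 19, 10566462 to 10569059) was at 4.67 and 5.85 FPKM in the control libraries and at 7.02 and 8.24 FPKM in the shWDR43 libraries, without overlap. The ratio of means was 1.45 and the log2 difference 0.47 ± 0.13 (SE, adjusted p = 0.0725), with an interval of 0.17 to 0.77. The CDKN2D difference ran from 0.33 to 0.60 over the alternatives, the highest being without shNC replicate 2. Its relative CDKN2C (chromosome 1, 50960745 to 50974633) was at 3.09 and 3.22 FPKM in the control libraries and at 3.42 and 3.06 FPKM in the shWDR43 libraries. These values overlapped, with a log2 difference of 0.03 and an interval of -0.23 to 0.29.

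CDKN1B (chromosome 12, 12715058 to 12722371) was the one gene of the set with non-overlapping groups in the downward direction. It was at 18.0 and 19.95 FPKM in the control libraries and at 16.2 and 17.1 FPKM in the shWDR43 libraries, a ratio of means of 0.879. The log2 difference of -0.17 did not pass (adjusted p = 0.267), and its interval ran from -0.39 to 0.04. CDKN1B is known to be controlled largely at the protein level, through ubiquitin ligases, which these RNA values do not measure.

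The summed level of the 3 inhibitors overlapped between groups, while the shares of CDKN1B and CDKN2D in it did not. CDKN1B, CDKN2C and CDKN2D together were at 25.8 and 29.02 FPKM in the control libraries and at 26.6 and 28.4 FPKM in the shWDR43 libraries. CDKN2D took 18.1% and 20.2% of that sum in shNC and 26.3% and 28.98% in shWDR43, and CDKN1B 69.9% and 68.7% against 60.8% and 60.3%. The exact permutation test gave p = 0.333 for each of these shares, the smallest possible. The D cyclin sum stood to CDKN1B at 4.45 and 4.23 in shNC and at 9.82 and 9.54 in shWDR43.

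The other INK4 genes did not pass the test either. CDKN2A, which encodes p16 and ARF, was at 17.6 and 18.2 FPKM in the control libraries and at 15.8 and 14.1 FPKM in the shWDR43 libraries (log2 difference -0.25, adjusted p = 0.144). The neighbouring gene CDKN2B, which encodes p15, was at 2.65 and 2.58 FPKM against 3.42 and 3.25 FPKM (log2 difference 0.26, adjusted p = 0.184). The 4 INK4 genes summed to 27.999 and 29.9 FPKM in the control libraries and to 29.7 and 28.6 FPKM in the shWDR43 libraries, which overlapped. CDKN2A, whose value does not separate p16 from ARF, took 62.8% and 61.0% of that sum in shNC and 53.3% and 49.2% in shWDR43. CDKN1A, the p21 gene, rose 3.13-fold to 239 and 229 FPKM, and its share of CIP/KIP mRNA went from 72.7% and 70.4% to 89.6% and 89.2%. With it the ratio of the D cyclin sum to the CIP/KIP sum went from 0.790 and 0.784 to 0.598 and 0.636, without overlap (exact permutation test, p = 0.333). Against the INK4 sum the D cyclin sum stood at 2.86 and 2.82 in shNC and at 5.36 and 5.71 in shWDR43.

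The pocket protein genes showed no change that passed on all 4 libraries. RB1, the retinoblastoma gene (chromosome 13, 48303726 to 48599436), was at 15.8 and 13.9 FPKM in the control libraries and at 17.2 and 18.8 FPKM in the shWDR43 libraries. Its groups did not overlap, and the log2 difference was 0.26 ± 0.10 (SE, adjusted p = 0.145), with an interval of 0.03 to 0.49. The RB1 difference ran from 0.18 to 0.35 over the alternatives, the highest being without shNC replicate 1. RBL1, the p107 gene and a textbook E2F target (chromosome 20, 36996349 to 37095995), was at 3.27 and 2.62 FPKM in the control libraries and at 2.42 and 2.88 FPKM in the shWDR43 libraries. The groups overlapped, and the log2 difference was -0.11 (adjusted p = 0.647), with an interval of -0.42 to 0.20. RBL2, the p130 gene, was at 17.7 and 15.9 FPKM in the control libraries and at 19.1 and 19.4 FPKM in the shWDR43 libraries (log2 difference 0.19, adjusted p = 0.222).

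**Figure D3:**
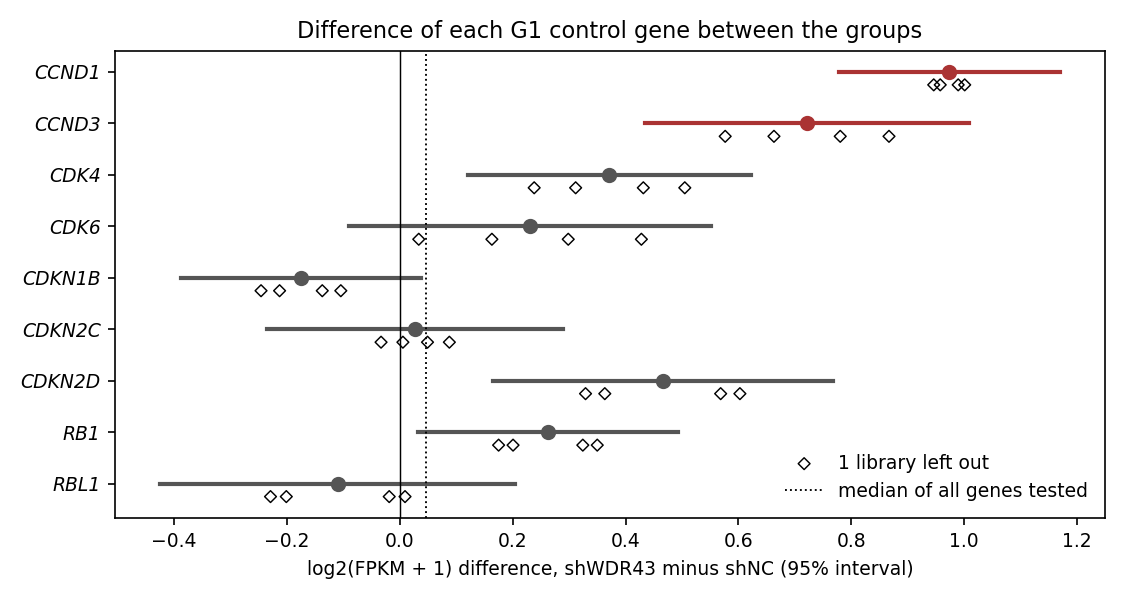
Difference between shWDR43 and shNC on the log2(FPKM + 1) scale for 9 genes, with points for the fit on 4 libraries, bars for its 95% interval, red where the adjusted p was below 0.05, and open diamonds for fits with 1 library left out. The dotted line is the median of all genes tested, 0.05. The CCND1 diamonds lie close to its point, whereas those of CDK6 spread from 0.03 to 0.43.

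Of the 9 tested genes, 5 (CCND1, CCND3, CDK4, RB1 and CDKN2D, 55.6%) had groups that did not overlap and were higher in shWDR43, and 1 (CDKN1B, 11.1%) was lower. Over all genes tested, 35.8% were higher without overlap and 21.5% were lower without overlap. The median log2 difference of the 9 was 0.26, against 0.05 over all genes tested. It was 0.24 after median-ratio scaling and 0.20 after upper-quartile scaling.

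Between genes, levels per length ran in a similar order in both groups. In shNC the mean FPKM fell from CCND1 at 77.0 through CDK4 at 25.7, CDKN1B at 19.0, RB1 at 14.9 and CDK6 at 9.74 to CDKN2D at 5.26 and CCND3 at 5.19, then CDKN2C at 3.16 and RBL1 at 2.94. The libraries of CDKN2D and CCND3 overlapped there, as did those of CDKN2C and RBL1, and the other neighbours did not. In shWDR43 RB1 at 18.0 FPKM was above CDKN1B at 16.7 FPKM, and CCND3 at 9.16 FPKM was above CDKN2D at 7.63 FPKM, with no overlap between neighbours. CCND1 was thus the highest of the set in all 4 libraries, and CCND2 the lowest.

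Promoter stretches of RBL1, CDK4 and CCND3 are shown because they set a gene whose groups overlapped beside one that missed the threshold and one that rose. Each is the 250 bases before a RefSeq transcription start (GRCh38.p14), on the minus strand, and 8 of the 10 genes had an entry in that table. Capitals mark E2F-type letters in RBL1 (chr20:37095998-37096247), E-boxes in CDK4 (chr12:57752311-57752560) and GC boxes in CCND3 (chr6:41941809-41942058, the nearest start upstream of the coding sequence shown above).
RBL1: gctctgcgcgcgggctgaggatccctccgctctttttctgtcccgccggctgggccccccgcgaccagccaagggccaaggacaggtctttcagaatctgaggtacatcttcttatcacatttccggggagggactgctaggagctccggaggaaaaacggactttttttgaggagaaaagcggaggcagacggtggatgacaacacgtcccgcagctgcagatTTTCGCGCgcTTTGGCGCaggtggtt
CDK4: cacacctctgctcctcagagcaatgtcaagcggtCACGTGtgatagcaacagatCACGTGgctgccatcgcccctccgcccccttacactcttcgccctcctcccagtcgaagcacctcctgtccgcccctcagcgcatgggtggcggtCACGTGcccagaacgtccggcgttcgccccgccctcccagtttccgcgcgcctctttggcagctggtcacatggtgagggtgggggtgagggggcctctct
CCND3: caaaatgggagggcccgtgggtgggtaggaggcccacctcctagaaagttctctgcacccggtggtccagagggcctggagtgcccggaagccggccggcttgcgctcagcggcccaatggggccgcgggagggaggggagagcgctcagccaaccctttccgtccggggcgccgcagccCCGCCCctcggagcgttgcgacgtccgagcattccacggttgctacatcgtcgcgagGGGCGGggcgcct
The E2F-type letters searched were TTTCCCGC, TTTGGCGC, TTTCGCGC and TTTGCCGC, on both strands. RBL1 held 2 matches, starting at -26 and -16 from the start and not overlapping. It was the only 1 of the 8 genes with a match in the stretches searched. Of 35116 stretches of this length in the table, 2.79% held such a match. CDK4 held 3 copies of the E-box CACGTG, a sequence bound by MYC among other factors, at -216, -196 and -101, against 6.34% of stretches with at least 1. CDKN2C, whose groups overlapped, also held this E-box, at -220 and -69 from different starts. CCND3 held 2 copies of the GC box GGGCGG, counted on both strands, at -70 and -13, and 42.6% of stretches held at least 1. The CDK4 stretch held 3 GC boxes, at -175, -127 and -73, left in lower case, and RBL1 held 0. The other CCND3 starts in the table held 0 and 5 GC boxes, and GC boxes also stood before starts of CDK6, CDKN1B, CDKN2C and CDKN2D. The motif put in capitals was chosen separately for each gene. The RB1 entry of the table starts inside the gene as GENCODE gives it and is not shown. The bases before the GENCODE start of RB1 were thus not searched. The CDK4 and CCND3 stretches shown and that of CDKN1B also lie inside their genes as GENCODE gives them.

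Among the other genes of the pathway, E cyclins, 2 E2F factors and several E2F targets rose, and none fell. These genes were taken from 5 lists with 72 distinct genes, all of them tested, and the lists too were chosen with earlier results known. In these, 14 rose (19.4%) and 0 fell, against 4.79% and 1.47% over all genes tested, and 1 had an unadjusted p below 0.05 in the downward direction, CDKN2A. The number that rose was 9 after median-ratio scaling and 10 after upper-quartile scaling, with 1 and 3 genes at an unadjusted p below 0.05 downward. Leaving out shNC replicate 1 or 2 gave 22 or 27, and leaving out shWDR43 replicate 1 or 2 gave 6 or 4. Over all genes the number that rose moved in the same directions, to 1220, 1795, 258 and 326.

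Of 12 other G1 cyclins, kinases and inhibitors, 4 rose (33.3%) and 0 fell, against 4.79% and 1.47% over all genes tested. Besides CDKN1A, those that rose were CCNE1 and CCNE2, whose E cyclins activate CDK2, and CDC25A, a phosphatase that removes inhibitory phosphates from CDK2. CCNE1 went from 5.75 and 5.24 FPKM to 11.96 and 11.9 FPKM (log2 change 0.995, limma adjusted p = 0.00537). Its ratio of means was 2.17, beside the 1.98 of CCND1. CCNE2 went from 1.97 and 1.81 FPKM to 3.31 and 3.82 FPKM, and CDC25A from a mean of 1.84 FPKM (SD 0.0580, n = 2) to 3.34 FPKM (SD 0.191, n = 2). Without shWDR43 replicate 2 CCNE2 and CDC25A did not pass (adjusted p = 0.118 and 0.131), nor did CDC25A without shWDR43 replicate 1 (0.0651). Without a filter on low values CCNE1, CCNE2 and CDC25A did not pass (0.0545, 0.125 and 0.125). The CDK-activating kinase genes CDK7, CCNH and MNAT1 and the kinase chaperone gene CDC37 had log2 differences from -0.06 to 0.14.

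Of 10 E2F and DP factor genes, 2 rose (20%) and 0 fell, against 4.79% and 1.47% over all genes tested. E2F1, an activator, went from 2.80 and 2.48 FPKM to 4.16 and 4.32 FPKM (log2 change 0.53, adjusted p = 0.0393). E2F7, a repressor of the family, went from 4.68 and 4.34 FPKM to 6.80 and 6.46 FPKM (log2 change 0.47, adjusted p = 0.0402). Neither passed after median-ratio scaling (adjusted p = 0.0510 and 0.0517), after upper-quartile scaling (0.0572 and 0.0609), with the replicate number as a block (0.0552 and 0.0610) or without either shWDR43 library.

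Of 24 textbook E2F targets, 7 rose (29.2%) and 0 fell, against 4.79% and 1.47% over all genes tested. A positive difference was found in 23, and the list median was 0.30, against 0.05 over all genes tested. Of the 24, 87.5% were higher without overlap and 0% lower without overlap, against 35.8% and 21.5% over all genes tested. PCNA, the replication clamp, went from 55.7 and 66.5 FPKM to 94.4 and 93.0 FPKM (adjusted p = 0.0251). The helicase subunit gene MCM4 went from 30.4 and 28.3 FPKM to 44.0 and 42.9 FPKM, and MCM6 from 14.1 and 13.8 FPKM to 20.5 and 21.4 FPKM (adjusted p = 0.0195 and 0.0204). Without a filter on low values none of the 24 passed in either direction with limma, with 15 at an unadjusted p below 0.05, and PCNA, MCM4 and MCM6 had adjusted p-values of 0.125, 0.104 and 0.104. MCM6 did not pass without shWDR43 replicate 2 either (0.0504). Leaving out shNC replicate 1 or 2 gave 11 or 17 that rose, leaving out shWDR43 replicate 1 or 2 gave 3 or 2, and 5 and 6 rose after the median-ratio and upper-quartile scalings. RBL1, set beside these, stayed at a log2 difference of -0.11. The listed targets ORC1, CCNA2 and POLA1, whose groups overlapped too, were at -0.03, 0.02 and 0.07.

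A list of 8 genes held RBL2 and the MuvB core, which belong to the DREAM repressor in resting cells, and also MYBL2 and DYRK1A. Of the 8, 0 passed with limma in either direction, with 2 at an unadjusted p below 0.05, both upward. These were MYBL2, which replaces the pocket protein in cycling cells, with a log2 difference of 0.23 (adjusted p = 0.144), and DYRK1A, the kinase that promotes DREAM assembly, with 0.27 (adjusted p = 0.168). Of 18 genes that act in the turnover of D cyclins and p27, 1 rose (5.56%) and 0 fell, near the 4.79% and 1.47% over all genes tested. That gene was COPS5, the signalosome subunit also known as JAB1, which went from 22.0 and 22.7 FPKM to 29.89 and 29.99 FPKM (log2 change 0.41, adjusted p = 0.0332). COPS5 did not pass after either scaling (adjusted p = 0.0545 and 0.0524), with the block (0.0603) or without either shWDR43 library (0.163 and 0.156). AMBRA1, the substrate receptor for D cyclin degradation, had a log2 difference of 0.07, and SKP2, the receptor for p27, of 0.22 (adjusted p = 0.241). CKS1B and CUL1 of the same list were lower, at -0.22 and -0.20 (limma adjusted p = 0.210 and 0.222). Of the 18, 38.9% were higher without overlap and 16.7% lower without overlap, against 35.8% and 21.5% over all genes tested.

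**Figure D4:**
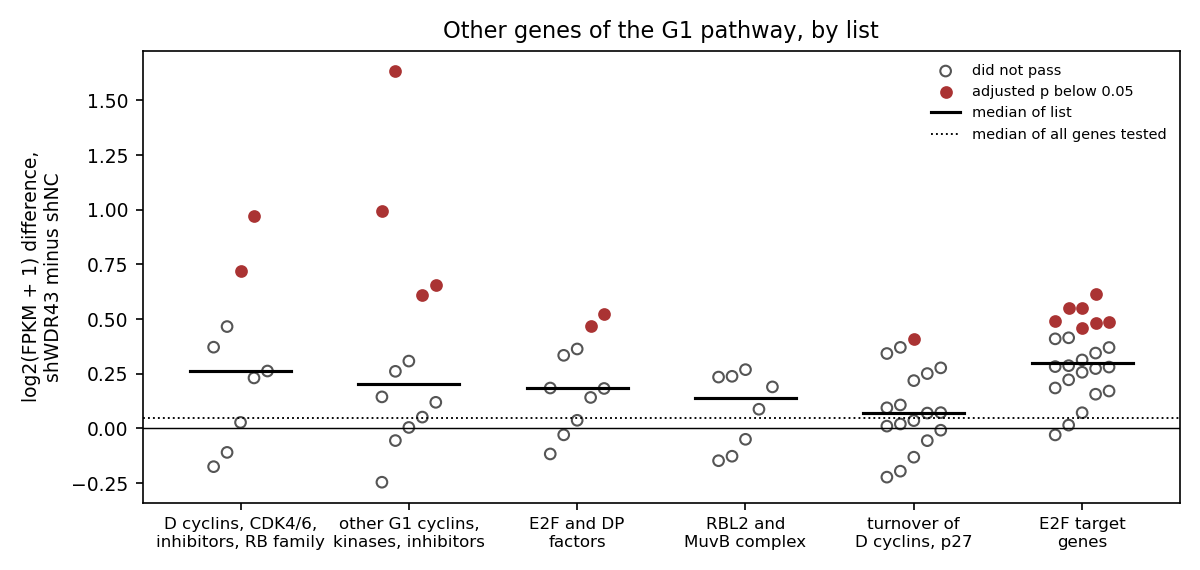
Difference between shWDR43 and shNC on the log2(FPKM + 1) scale for each tested gene, by list, with red points for an adjusted p below 0.05, open points for genes that did not pass, black lines for list medians and a dotted line for the median of all genes tested. The 24 E2F targets lie almost all above 0 with a median of 0.30, and the 18 turnover genes are centred at 0.07.

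The genes nearest to CCND1 and CCND3 in pattern were looked for among 8138 other tested genes that averaged 5 FPKM or more, by Euclidean distance between centred log2 values over the 4 libraries. For CCND1 these were ALDH1A3, an aldehyde dehydrogenase gene, at 54.7 and 55.3 FPKM against 106 and 108 FPKM (distance 0.0369), and BIK, a BH3-only gene (distance 0.0676). For CCND3 they were MT1X, a metallothionein gene, at 52.3 and 64.1 FPKM against 99.0 and 105 FPKM (distance 0.0857), and TRIAP1 (distance 0.102). With 4 libraries in 2 groups, such likeness describes little beyond the size of the difference.

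Some values could hold reads of other genes, since the sources used here do not give a strand setting for the counting. CCND1 shares 1399 bases at its 3' end with LTO1 on the opposite strand, which was at 4.61 and 3.18 FPKM in the control libraries and at 4.53 and 4.32 FPKM in the shWDR43 libraries, far below CCND1. CDK4 (chromosome 12, 57747727 to 57756013) overlaps TSPAN31 over 2485 bases and MARCHF9 over 916 bases, both on the opposite strand, so its level is uncertain. TSPAN31 was at 4.36 to 5.38 FPKM and MARCHF9 at 8.32 to 9.94 FPKM over the 4 libraries. Of the protein-coding genes within RB1 on the opposite strand, LPAR6 was at most at 0.127 FPKM and RCBTB2 at most at 0.359 FPKM. CDKN2C and CDKN2D overlap no other gene in GENCODE release 29.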

How the data were processed

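The submitters' processing notes name, in no stated role or order, HISAT2, RSEM, edgeR, Trimmomatic, FastQC and CASAVA 1.8, and the GRCh38 build. Per the labels' protocols, an Illumina TruSeq kit was used on 1 ug of total RNA. The deposited values were read as FPKM, inferred from their sums, and TPM over part of the genes cannot be told apart. The sources used here give no annotation, strand setting or depth. Whole reads were not recovered: the fullest 1% window of ratios between libraries held at most 1.05% of low genes. A blank entry was left out, and 29170 of 29286 identifiers had a symbol.

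Groups came from the sample titles. The test was limma 3.58.1 (R 4.3.3) on log2(FPKM + 1), over genes that reached 1 FPKM in at least 2 libraries, with a group term alone, trend and robust settings, 2 residual degrees of freedom before variances were moderated, and Benjamini-Hochberg adjustment over 13303 genes at 0.05. Fold changes on that scale understate those of low genes. It was tested on simulated data. Sums and ratios had an exact two-sided permutation test over libraries. Alternatives were a pseudocount of 0.1, no filter, a filter at 5 FPKM, 2 scalings, a replicate block, robust off, and each library left out in turn. With 1 library left out, the spread came only from the group that kept 2, so passes there are not like those of the full fit. The SD of the log2 difference between the libraries of a group was 0.245 in shNC and 0.177 in shWDR43. A crossed block was added after the data were seen.

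The genes of the set and the lists were chosen with earlier results of these data known. Named were all 10 genes, up to 4 with the smallest p-values among those that passed in each list (the 2 smallest where none did), the 2 nearest in pattern to each gene of the set that passed, CDKN1A and CCNE1. The other inhibitors, RBL2, CDK7, CCNH, MNAT1, CDC37, AMBRA1 and SKP2 were named outside that rule, after their values were seen. So were CKS1B, CUL1, ORC1, CCNA2 and POLA1. An E2F target that the rule names is not reported here. Python 3.11.15 was used for tables and figures.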

Additional observations from a re-analysis of the deposited data

How the results depend on the processing

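Depth is unknown, so the counting error of low genes could not be estimated. Over all genes tested, the 637 that rose were 15 without a filter on low values, 311 after median-ratio scaling, 327 after upper-quartile scaling and 413 with the replicate block, and ranged from 258 to 1795 with 1 library left out. The 196 that fell were 2 without a filter and ranged from 133 to 815 with 1 library left out. Of the 10 genes of the set, 1 rose without a filter, CCND1, and 2 to 4 with 1 library left out. In the other lists the 14 that rose were 1 without a filter, 9 after median-ratio scaling and 4 to 27 with 1 library left out, and 0 to 1 fell. More genes are tested without a filter, and the other causes were not tested. The ratio of summed D cyclins, 1.96, was 1.87 after upper-quartile scaling, which divides libraries by another constant. The difference of CDKN2C, 0.03, was -0.0269 after upper-quartile scaling and ran from -0.0330 (without shWDR43 replicate 1) to 0.0879 with 1 library left out, and that of RBL1, -0.11, from -0.229 to 0.00942 (without shNC replicate 1). CCND1 passed in all 11 alternatives and CCND3 in 10. The labels do not say that replicate numbers pair libraries, so the numbers were not taken as pairs. Same-numbered libraries did not deviate together (correlation -0.147 over 13303 genes). The block left 2 genes of the set risen and changed no call among its 9 tested genes. With the numbers crossed, 1375 genes rose and 579 fell, among them 4 of the 9 tested genes of the set and 24 of the 72 genes of the other lists, 14 of them E2F targets, all upward.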
